A study of Mus musculus with 6 samples.

Results

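The 41 genes described here encode hydrolases that break down material inside lysosomes, proteins of the lysosomal membrane, subunits of the proton pump that acidifies the organelle, and the transcription factor Tfeb. They were taken by gene symbol from a list of lysosomal genes, by a rule that sets no threshold on a measured value, out of 43432 genes counted in each library. All 41 were measured in every library and all 41 passed the filter on low counts, which left 12881 genes for testing. By role they comprised 11 cathepsins and other proteases, 9 glycosidases, 8 lipid hydrolases and their cofactors, 6 membrane proteins, 6 proton pump genes and Tfeb.

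Lysosomes receive material from endocytosis, phagocytosis and autophagy and degrade it with enzymes that work at acid pH. The vacuolar proton pump (V-ATPase) provides the acid by driving protons through its membrane sector with ATP hydrolysed in its cytosolic sector. Many lysosomal genes carry a short palindromic element near their start site, called the CLEAR element, which TFEB and its relatives TFE3, MITF and TFEC can bind. Every cell has lysosomes, but macrophages, which clear debris from injured muscle, have many of them, and cathepsin S, CD68 and the d2 subunit of the pump are known mainly from such myeloid cells. Cathepsin K, a collagen-degrading protease, is best known from osteoclasts and is also made by fibroblasts.

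The study concerns a mouse with a deletion of the growth factor gene Igf1 in fibro-adipogenic progenitors, or FAPs, the mesenchymal cells that reside in skeletal muscle. RNA sequencing gave 3 libraries titled control and 3 titled FID, all 6 also tagged D3, and the labels spell out neither tag. Per the labels' protocols, mice of both sexes were given tamoxifen at 12 to 13 weeks of age, 100 ug per g of body weight on 5 days, followed by at least 1 week without it. The labels give the same protocol for both groups, and name neither the genotype of each library nor the promoter that drives the deletion. The source of every library is labelled skeletal muscle, while the protocols also describe RNA of primary FAPs. RNA input was given as 1000 ng, with a minimum RNA integrity number of 5.6, for all 6 libraries. Whether each library stands for its own animal is not stated, and p-values then describe only how far these libraries spread, part of which may be technical.

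Levels are given as CPM, counts relative to the TMM-scaled library size, in the order of libraries 1, 2 and 3. Igf1, the targeted gene, had 134, 60.4 and 106 CPM in the control libraries and 109, 107 and 81.6 CPM in the FID libraries. FID over control, it differed by -0.01 on the log2 scale (SE 0.28, edgeR adjusted p = 0.990), so its level does not check the labels, and "control" and "FID" below mean the libraries labelled so. Gene counts summed to between 5201853 (control 1) and 10093757 (control 3) per library. Transcripts of mature muscle fibres were scarce, with Ckm, the muscle creatine kinase, at no more than 1.19 CPM in any library. The 10 markers of mature fibres summed to 71.6 CPM in control 1 and to between 11.6 and 35.4 CPM in the other libraries. FAP and fibroblast markers summed to between 32672 and 71334 CPM, mostly as Col1a1, Col1a2 and Col3a1.

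Lysosomal transcripts made up a larger share of the FID libraries. The 41 genes together took 2.66%, 2.30% and 1.72% of gene counts in control 1, 2 and 3 (2.23% ± 0.474, SD, n = 3), against 3.58%, 3.997% and 3.29% in FID 1, 2 and 3 (3.62% ± 0.358, SD, n = 3). The groups did not overlap. This sum weighs abundant genes most, with Psap, Ctsb and Ctsd averaging 6057, 5429 and 3381 CPM over all 6 libraries. The fitted log2 fold change, FID over control, was above 0 for 35 of the 41 genes and below 0 for 6, where 47.8% of all tested genes were above 0. Its median was 0.47 over the 41 genes and -0.02 over all tested genes. In 19 of the 41 (46.3%), every FID library stood above every control library, compared with 13.0% of all tested genes, and none stood below in every library, compared with 12.3%.

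No single gene of the 41 passed edgeR's quasi-likelihood test after Benjamini-Hochberg adjustment over all genes (adjusted p from 0.122 to 0.998), as was true of every gene tested (0%, smallest adjusted p = 0.109). At an unadjusted p under 0.05, 23 of the 41 were higher in FID and 0 lower, with 9.81% of all tested genes higher at that level. DESeq2, run as an alternative on the same counts, called 12 of the 41 higher and 0 lower, against 3.60% of its tested genes higher and 5.78% in either direction. These were Ctsc, Ctsl, Ctss, Ctsz, Lgmn, Gla, Lipa, Npc2, Cd68, Atp6v1a, Atp6v1b2 and Atp6v1c1. With sample weights, limma-voom called 16 higher (6.88% of all tested genes), and edgeR with no filter on low counts called 8 higher (1.02% higher, 1.26% in either direction). Called genes were 0 of the 41 with limma-voom without weights (smallest adjusted p among the 41 = 0.127), with edgeR under other scalings, under a filter of 1 CPM in 3 libraries, and with the replicate block. Without FID 1, edgeR called 6 higher (2.15% of its tested genes), namely Ctsc, Gla, Npc2, Atp6v1a, Atp6v1b2 and Atp6v1c1.

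**Figure D1:**
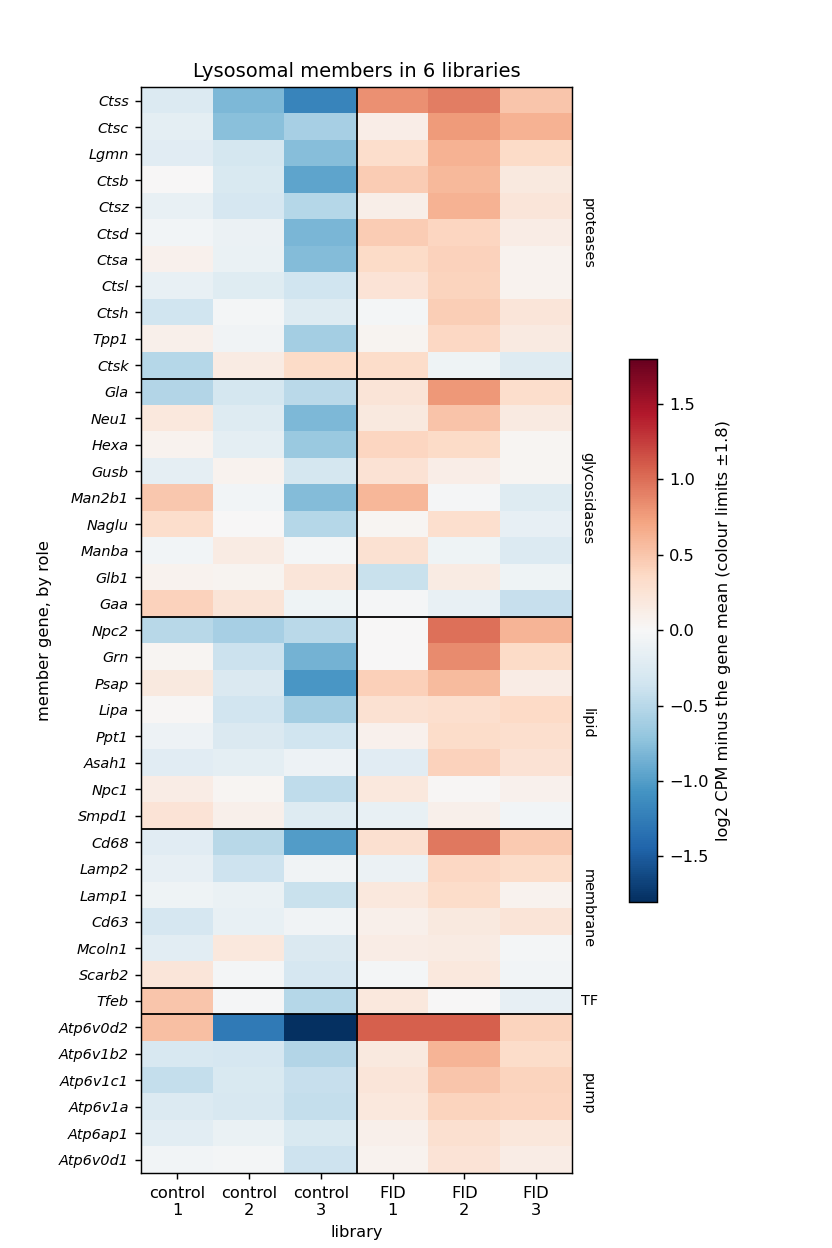
Heat map of the 41 lysosomal genes (rows, grouped by role) in the 3 control and 3 FID libraries (columns), coloured by the log2 CPM of each library minus the gene's mean over all 6. Most rows are lower in the control columns, lowest in control 3, and higher in the FID columns, whereas Ctsk, Tfeb and several glycosidases show no such split.

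The libraries of a group were not alike. Among the control libraries, control 1 was highest for 27 of the 41 genes and control 3 lowest for 30, with 26 genes in the order control 1, control 2, control 3. Among the FID libraries, FID 2 was highest for 30. Over all 6 libraries the lowest value was in control 3 for 29 genes and the highest in FID 2 for 25. Leaving out 1 library at a time can only keep or raise the count of genes without overlap, which ranged from 19 to 26. It was 26 without control 1, where 19.7% of all tested genes were higher without overlap, 24 without FID 1, where 21.2% were, 22 without control 2 and 19 without FID 2, where 16.2% were in each case.

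**Figure D2:**
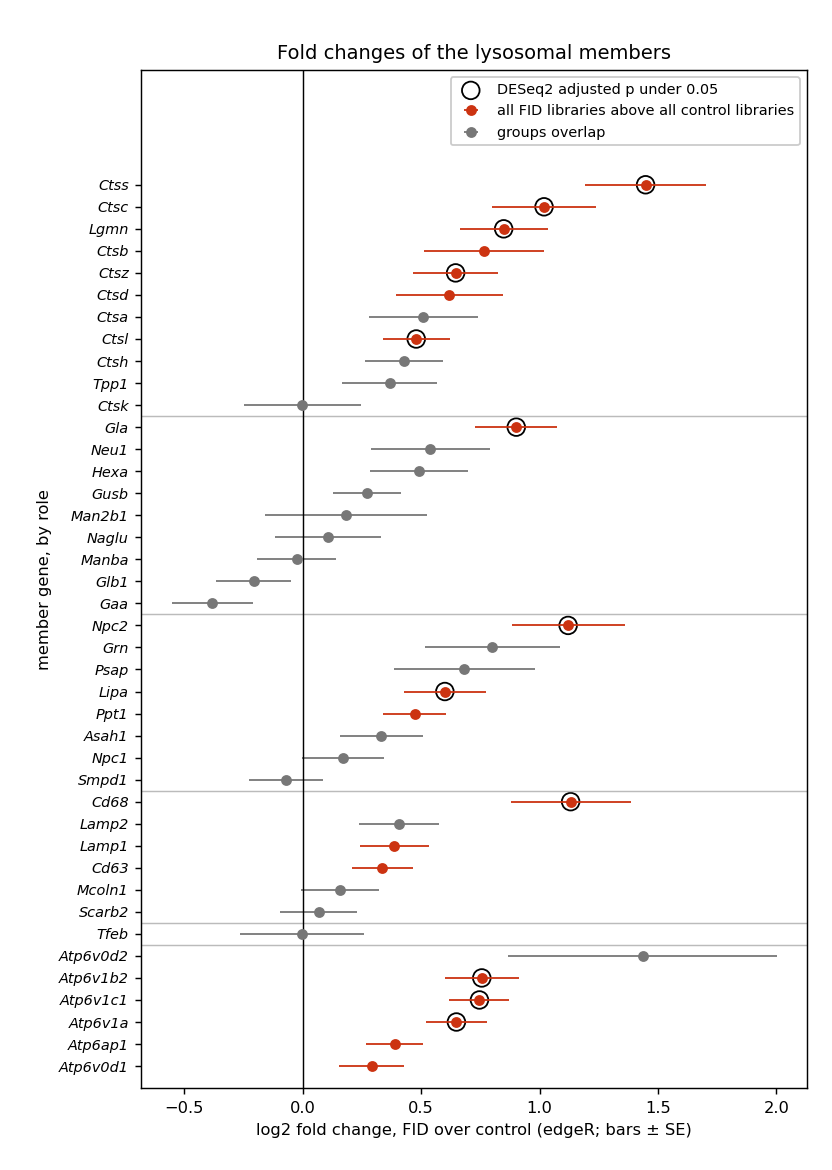
Fitted log2 fold change, FID over control, for each of the 41 genes by role with bars of 1 standard error. Red points mark genes whose FID libraries all lay above the control libraries, grey points the rest, and rings a DESeq2 adjusted p under 0.05. Ctss, Atp6v0d2, Cd68, Npc2 and Ctsc lie at or above 1.02, while Ctsk and Tfeb lie at 0 within their error.

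Start-site sequence was then searched for letters bound by factors known from lysosomal and myeloid genes. RefSeq promoter windows of the GRCm38.p6 build, running from 250 bases before to 50 bases after the annotated start, matched 34 of the 41 genes, and not Ctsb, Ctsh, Asah1, Npc1, Atp6v0d2, Atp6v1b2 or Atp6v1c1. The letters TCACGTGA, a palindrome, are the core of the CLEAR element and contain the E-box CACGTG. They were found in windows of 6 of the 34 genes (17.6%) and of 239 of 16522 protein-coding genes (1.45%). The 6 genes were Ctsa, Ctsd, Gla, Mcoln1, Atp6v0d1 and Atp6v1a, drawn from every role except the lipid group and Tfeb. The stretches are shown because they are the sequence these genes share, each 30 bases long on the gene's own strand, with TCACGTGA in capitals. The Gla window holds it at 2 places, both shown, and the Ctsa window likewise, of which the first is shown.
Ctsa (chr2:164833749-164833778, plus strand): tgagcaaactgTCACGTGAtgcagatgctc
Ctsd (chr7:142387908-142387937, minus strand): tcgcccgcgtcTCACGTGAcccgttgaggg
Gla (chrX:134601215-134601244, minus strand): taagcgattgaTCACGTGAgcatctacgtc
Gla (chrX:134601182-134601211, minus strand): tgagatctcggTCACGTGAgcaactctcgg
Mcoln1 (chr8:3500462-3500491, plus strand): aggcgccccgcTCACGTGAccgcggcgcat
Atp6v0d1 (chr8:105566050-105566079, minus strand): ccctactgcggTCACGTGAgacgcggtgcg
Atp6v1a (chr16:44139373-44139402, minus strand): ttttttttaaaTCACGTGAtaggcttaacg
The 6 genes had log2 fold changes from 0.16 (Mcoln1) to 0.90 (Gla), median 0.56, against a median of 0.40 for the other 28 genes with a window. The shorter CACGTG, which every TCACGTGA contains, was in windows of 12 of the 34 genes (35.3%) and of 9.18% of all genes searched. Ctsl, Lgmn, Gaa, Glb1, Naglu and Lamp1 hold it without the outer letters, Lamp1 at 4 places. The median log2 fold change was 0.43 with CACGTG and 0.44 without.

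The letters GAGGAAGT were searched on both strands as the core of sites for PU.1, the ETS factor of myeloid cells. They were in windows of 4 of the 34 genes (11.8%) and of 3.62% of all genes searched. The 4 genes were Ctss, Ctsc, Gla and Gusb, with a median log2 fold change of 0.96, against 0.40 for the other 30. Of these 4, 3 were higher in FID without overlap, against 13 of the other 30, and no test was run on so few genes. Gusb (log2 fold change 0.27) overlapped, and its match is not shown. The match in the other 3 is given here on the gene's strand, where it reads as the reverse complement, in capitals.
Ctss (chr3:95526773-95526802, plus strand): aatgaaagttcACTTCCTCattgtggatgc
Ctsc (chr7:88277923-88277952, plus strand): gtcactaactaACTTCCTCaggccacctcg
Gla (chrX:134601135-134601164, minus strand): tgagatgccgcACTTCCTCctcctttggaa
In Ctss the match lies across the start of the annotated gene. Gla is the only gene of the 34 with both TCACGTGA and GAGGAAGT. The Ctsk window holds none of the 3 letter sets. Nor do the windows of Cd68 and Npc2, with log2 fold changes of 1.13 and 1.12. A match is a description of these letters and not a bound site.

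The proteases included the gene with the highest log2 fold change of the 41, Ctss, and a neighbouring gene near 0, Ctsk. Of the 11, 10 had a log2 fold change above 0 (median 0.62), 7 were higher in FID without overlap (13.0% of all tested genes), and DESeq2 called 5 higher (3.60% of its tested genes). Cathepsin S (Ctss), which stays active at neutral pH and trims the invariant chain of MHC class II in antigen-presenting cells, stood at 970.5, 657 and 502 CPM in the control libraries. In FID it stood at 2020.5, 2168 and 1618 CPM. The lowest FID library was above the highest control library, and the means were 709.7 ± 239 and 1935 ± 285 CPM (SD, n = 3 each). This is 2.73-fold, or 1.45 on the log2 scale (SE 0.26), with an adjusted p of 0.128 in edgeR and 3.18e-05 in DESeq2.

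Cathepsin K (Ctsk) read 105, 166 and 190.3 CPM in the control libraries and 189.9, 143 and 129 CPM in the FID libraries. The ranges coincided, the means were 154 ± 44.0 and 154 ± 32.0 CPM (SD, n = 3 each), and the fitted log2 difference came to -0.0019 (SE 0.25, edgeR adjusted p = 0.998). The order of its libraries ran against that of most of the 41 genes, with control 3 highest and control 1 lowest among the controls. Leaving out 1 library at a time moved the log2 fold change between -0.21 and 0.20, so it had no settled sign. Ctsk and Ctss are neighbours on mouse chromosome 3 (GRCm38, GENCODE M21). Ctsk spans 95499256 to 95509362 and Ctss 95526786 to 95556403, both on the plus strand, with 17423 bases and no annotated gene between them.

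The remaining proteases lay between these neighbours. Cathepsin C (Ctsc), which activates the serine proteases of leukocyte granules, stood at 304, 205 and 228 CPM in control against 374, 587 and 532 CPM in FID. Its groups did not overlap, with a log2 fold change of 1.02 (SE 0.22) and an adjusted p of 0.136 in edgeR and 0.00268 in DESeq2. Legumain (Lgmn), the asparaginyl endopeptidase that processes other cathepsins, stood at 1083, 999 and 729 CPM in control against 1548, 1924 and 1588 CPM in FID. Every FID library was again higher, by 0.85 on the log2 scale (SE 0.19, adjusted p 0.136 in edgeR and 0.00316 in DESeq2). The abundant general-purpose enzymes cathepsin B (Ctsb), a cysteine protease, and cathepsin D (Ctsd), an aspartic protease, differed by 0.77 (SE 0.25) and 0.62 (SE 0.23). Neither overlapped between groups. Ctsb stood at 5171, 4247 and 2651 CPM in control against 7070.4, 7658 and 5779.9 CPM in FID (edgeR adjusted p = 0.187).

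Ctsl and Ctsz, cysteine cathepsins of many cell types, also did not overlap, at 0.48 and 0.65, and DESeq2 called both. Ctsa, which also protects the sialidase Neu1, Ctsh, an aminopeptidase, and Tpp1, a tripeptidyl peptidase, had log2 fold changes of 0.51, 0.43 and 0.37 with overlapping libraries. Per transcript length, as TPM, the order of the means of Ctss and Ctsb differed between groups. Ctss averaged 1756 ± 609 TPM in control, below Ctsb at 2229.5 ± 709.96, and 4455 ± 610 TPM in FID, above Ctsb at 3531 ± 454 (SD, n = 3 each). The ranges of mean ± SD of Ctss and Ctsb overlapped in both groups, and their order was not tested.

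The glycosidases, which remove sugars from glycans, glycogen and glycolipids, had the smallest median of the 5 roles that hold several genes. Of the 9, 6 had a log2 fold change above 0 and 3 below 0, with a median of 0.18. Gla was the only glycosidase without overlap, and 1 of 9 (11.1%) is no more than the 13.0% of all tested genes. Alpha-galactosidase A (Gla), the enzyme lacking in Fabry disease, stood at 81.9, 94.5 and 84.0 CPM in control against 138, 202 and 147 CPM in FID. The controls lay close together (86.8 ± 6.75 CPM, SD, n = 3) and below every FID library (162 ± 35.0). Its log2 fold change was 0.90 (SE 0.17), with an adjusted p of 0.136 in edgeR and 0.00148 in DESeq2.

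Acid alpha-glucosidase (Gaa), which degrades glycogen in lysosomes, had the lowest log2 fold change of the 41, at -0.38 (SE 0.17, edgeR adjusted p = 0.280). Its control libraries read 185, 164 and 132 CPM and its FID libraries 137, 127 and 104 CPM, so that FID 1 lay above control 3. Hexa, the alpha chain of the hexosaminidase that degrades GM2 ganglioside, was the most abundant by CPM, at 353, 299 and 212 in control and 440.5, 429 and 343 in FID. Control 1 lay above FID 3, and FID was higher by 0.49 on the log2 scale (SE 0.21, edgeR adjusted p = 0.261). The other 6, from Neu1 (0.54) through Gusb (0.27), Man2b1 (0.18), Naglu (0.11) and Manba (-0.03) to Glb1 (-0.21), all overlapped. The median of the 9 was -0.040 without control 3, the library lowest for most lysosomal genes.

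Of the 8 lipid hydrolases and cofactors, 7 had a log2 fold change above 0 (median 0.54) and 3 did not overlap (13.0% of all tested genes). Npc2, the soluble protein that binds cholesterol released in the lumen and passes it to the membrane protein Npc1, stood at 566, 529.6 and 572 CPM in control against 807, 1595 and 1224 CPM in FID. The controls were tight (556 ± 22.9 CPM, SD, n = 3) and the FID libraries spread more widely (1208 ± 394), all of them higher. The log2 fold change was 1.12 (SE 0.24, adjusted p 0.136 in edgeR and 0.00159 in DESeq2). Its partner Npc1 stood at 146, 136 and 96.8 CPM in control against 151, 134 and 140.3 CPM in FID, with overlap and a log2 fold change of 0.17.

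Lysosomal acid lipase (Lipa), which frees cholesterol and fatty acids from esters, stood at 332, 257 and 214 CPM in control against 396, 402 and 418 CPM in FID. The log2 fold change was 0.60 (SE 0.17, adjusted p 0.164 in edgeR and 0.0466 in DESeq2). Ppt1, which removes palmitate from proteins, also did not overlap, at 118, 105 and 98.6 CPM against 133, 159 and 155 CPM (0.47, SE 0.13). Prosaposin (Psap), the precursor of the saposins that present sphingolipids to their hydrolases, was the most abundant of the 41. Its mean was 5689 ± 2290 TPM in control (SD, n = 3) and 8498 ± 1130 TPM in FID (SD, n = 3). In CPM it stood at 6449, 4749 and 2759 in control and 7664, 8451 and 6271 in FID, so that control 1 lay just above FID 3 (log2 fold change 0.68, SE 0.30, edgeR adjusted p = 0.272). Progranulin (Grn), which binds prosaposin, overlapped by control 1 alone, at 1466 CPM beside 1447 CPM in FID 1. The ceramidase Asah1 (0.33) and the sphingomyelinase Smpd1 (-0.07) overlapped too.

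All 6 membrane protein genes had log2 fold changes above 0 (median 0.36), and 3 did not overlap (13.0% of all tested genes). CD68, a heavily glycosylated relative of the LAMP proteins used as a macrophage marker, stood apart from the rest. Cd68 stood at 355, 289.7 and 203 CPM in control against 497, 789 and 568 CPM in FID, without overlap (283 ± 76.4 and 618 ± 152 CPM, SD, n = 3 each). On the log2 scale FID was higher by 1.13 (SE 0.25, adjusted p 0.136 in edgeR and 0.00271 in DESeq2). Lamp1, a main glycoprotein of the lysosomal membrane in most cells, stood at 881, 857 and 705 CPM in control against 1059, 1167 and 970.4 CPM in FID. It too did not overlap, but by a smaller step of 0.39 (SE 0.15, edgeR adjusted p = 0.218).

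The tetraspanin Cd63, found on late endosomes and exosomes, stood at 788, 887 and 935 CPM in control against 1040.2, 1104 and 1152 CPM in FID (0.34, SE 0.13, edgeR adjusted p = 0.222). Lamp2, needed for fusion of autophagosomes with lysosomes, overlapped at 0.41 (SE 0.17). Mcoln1, the calcium-releasing channel TRPML1, and Scarb2, the carrier of beta-glucocerebrosidase, were at 0.16 and 0.07, both with overlap.

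The proton pump genes had the highest median of the roles. All 6 were above 0 (median 0.70), and 5 did not overlap (13.0% of all tested genes). The 3 subunits of the cytosolic, ATP-hydrolysing sector were close to each other in size. Atp6v1a, the catalytic subunit, stood at 278, 272 and 246 CPM in control against 376, 439 and 431 CPM in FID (0.65, SE 0.13, adjusted p 0.136 in edgeR and 0.000812 in DESeq2). Atp6v1b2, the B subunit of most tissues, stood at 192, 189 and 162 CPM against 263, 358 and 294 CPM (0.76, SE 0.16, DESeq2 adjusted p = 0.00293). Atp6v1c1, a subunit of the stalk that joins the sectors, stood at 69.4, 77.4 and 69.9 CPM against 108, 132 and 124 CPM. It had the smallest edgeR adjusted p of the 41, at 0.122 (0.75, SE 0.13, DESeq2 adjusted p = 0.00045). In each of the 3 the control libraries lay within a narrow band that no FID library entered.

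The d subunit of the membrane sector comes in a general form, Atp6v0d1, and a form known from osteoclasts, macrophages and kidney, Atp6v0d2. Atp6v0d1 stood at 129, 129.7 and 103 CPM in control against 139, 157 and 145 CPM in FID, without overlap (0.29, SE 0.14, edgeR adjusted p = 0.302). Atp6v0d2 stood at 24.1, 6.89 and 4.69 CPM in control against 35.0, 35.1 and 22.0 CPM in FID. Control 1 lay above FID 3, and its distance from the other controls made the error large (1.43, SE 0.57, adjusted p 0.233 in edgeR and 0.109 in DESeq2). Without control 1 its log2 fold change was 2.40, and over the libraries left out in turn it ranged from 1.05 to 2.40. Atp6v0d1 was the more abundant form in every library, at 225 TPM in control and 256 in FID on average, against 14.8 and 35.4 TPM for Atp6v0d2. The accessory protein gene Atp6ap1, needed for pump assembly, stood at 191, 199 and 179.9 CPM against 230.1, 265 and 250.2 CPM (0.39, SE 0.12).

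Tfeb, a main regulator of genes with CLEAR elements, stood at 20.6, 14.3 and 10.2 CPM in control against 16.6, 14.6 and 13.2 CPM in FID. The FID values lay inside the control range, and the fitted log2 difference came to -0.0034 (SE 0.26, edgeR adjusted p = 0.997). It had the lowest TPM of the 41 (8.89 and 8.17). Its relative Tfe3 was as flat, at 0.06 (SE 0.11), and Mitf was at 0.32 with overlap. Tfec, a relative known from macrophages, stood at 4.94, 3.85 and 2.44 CPM in control against 13.3, 7.14 and 8.86 CPM in FID, without overlap (1.41, SE 0.35, adjusted p 0.138 in edgeR and 0.0141 in DESeq2). The Tfeb values are transcript levels, and the activity of the factor, set mostly by its phosphorylation and place in the cell, was not measured.

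Ratios within a library need no scaling between libraries and set the myeloid-biased genes against their partners directly. The ratio of Ctss to Ctsk counts was 9.23, 3.95 and 2.64 in control and 10.6, 15.1 and 12.6 in FID. On the log2 scale the control mean was 2.20 ± 0.92 and the FID mean 3.66 ± 0.25 (SD, n = 3 each), a difference of 1.47 without overlap. An exact two-sided permutation test gave p = 0.1, the smallest that 3 against 3 libraries allow, and 0.15 after Benjamini-Hochberg adjustment over the 3 ratios. The ratio of Cd68 to Lamp1 was 0.403, 0.338 and 0.288 in control and 0.470, 0.677 and 0.586 in FID. Its log2 difference was 0.75, again without overlap (exact permutation p = 0.1, adjusted 0.15).

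The ratio of Atp6v0d2 to Atp6v0d1 was 0.188, 0.0535 and 0.0461 in control and 0.252, 0.224 and 0.152 in FID. It overlapped through control 1 (log2 difference 1.40, exact permutation p = 0.2, adjusted 0.2). In all 3 ratios control 1 was the control library nearest to FID. Within a library, then, Ctss and Cd68 stood higher against their partners in every FID library, and no ratio could pass a threshold of 0.05 in this design.

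**Figure D3:**
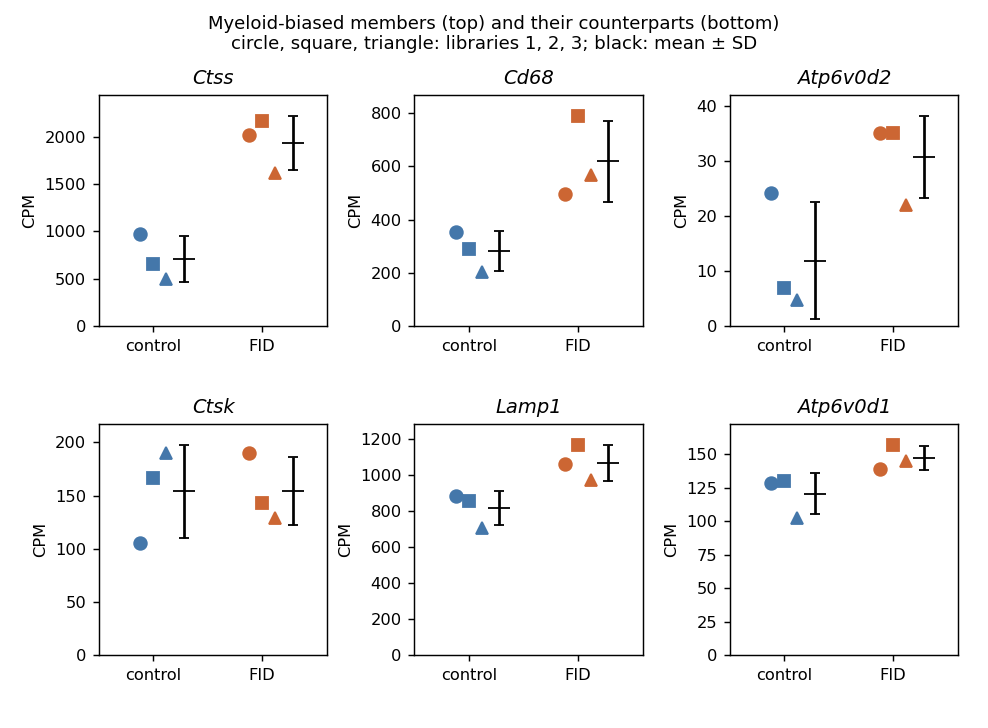
CPM (vertical axes from 0) in each of the 6 libraries for Ctss, Cd68 and Atp6v0d2 (top) and Ctsk, Lamp1 and Atp6v0d1 (bottom), with mean and SD in black. Ctss and Cd68 separate the groups, Atp6v0d2 separates them except for control 1 at 24.1 CPM, Ctsk does not, and Lamp1 and Atp6v0d1 do so by smaller steps.

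Macrophage markers differed in the same direction as most of the lysosomal genes, and FAP markers in the opposite direction. The 20 macrophage markers summed to 5525, 5488 and 3286 CPM in control 1, 2 and 3 and to 8851, 8162 and 6329 CPM in FID 1, 2 and 3. Of these 20, none was at 0 in any library and 19 had a log2 fold change above 0 (median 0.76). Higher in FID without overlap were 9 of the 20, compared with 13.0% of all tested genes. Lyz2 gave much of the sum, at 1857, 2283 and 1429 CPM in control and 4302, 2193 and 1720 CPM in FID, with overlap. Adgre1, which encodes F4/80, stood at 318, 243 and 171 CPM against 379, 436 and 424 CPM (0.76, SE 0.22, adjusted p 0.164 in edgeR and 0.0411 in DESeq2), while Csf1r overlapped at 0.37 (SE 0.32). The 15 FAP and fibroblast markers summed to 66196, 71334 and 63677 CPM in control and 48439, 34516 and 32672 CPM in FID. Most of this sum was Col1a1, Col1a2 and Col3a1, with means of 21995, 18594 and 18391 CPM in control. Their FID means were 11858, 11228 and 10314.5 CPM. All 15 had a log2 fold change below 0 (median -0.56), and 8 were lower without overlap (12.3% of all tested genes). The rest, Pdgfra, Dpt, Pi16, Cd34, Dcn, Lum and Postn, overlapped between groups. Control 3, lowest for most lysosomal genes, was also the lowest in summed macrophage markers.

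The 8 monocyte markers did not move together. Of these 8, 6 had a log2 fold change above 0 (median 1.49) and 4 were higher in FID without overlap (13.0% of all tested genes). Fn1, also a fibroblast gene, was lower without overlap (12.3% of all tested genes). Fn1 was the most abundant of them, and their summed level was lower in FID, at 6436, 5979 and 6129 CPM in the control libraries and 4904, 4333 and 3876 CPM in the FID libraries. Ly6c2, a surface marker of inflammatory monocytes, stood at 33.8, 9.63 and 31.0 CPM in control against 54.2, 713 and 552 CPM in FID, highest in FID 2 and FID 3. Plac8 was likewise highest in FID 2 and FID 3, while Chil3 and Vcan overlapped between groups. Of the 9 osteoclast markers 6 passed the filter and 4 of these were above 0, and the 9 summed to between 135 and 252 CPM in control and between 167 and 187 CPM in FID, with Calcr, the calcitonin receptor, at 0.10 CPM or less. Endothelial markers summed to 4523 CPM in control 1 and to between 1231 and 2021 CPM in the other libraries. Pericyte and smooth muscle markers summed to 2211 CPM in control 1 and to between 705 and 959 CPM in the other libraries. The part of these cell types in the lysosomal result was not tested. In bulk RNA, fewer cells of a type and less RNA per cell cannot be told apart.

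Set against the summed macrophage markers of the same library, a scale chosen after the values were seen, the lysosomal genes divided differently. Ctss alone was higher in every FID library than in every control library, by 0.76 on the log2 scale, 14 of the 41 were lower, 26 overlapped, and the median was -0.26. The 14 lower genes were Ctsa, Gaa, Glb1, Hexa, Man2b1, Manba, Naglu, Smpd1, Npc1, Lamp1, Scarb2, Mcoln1, Tfeb and Atp6v0d1. Leaving Lyz2, the lysozyme gene that was the most abundant macrophage marker, out of the sum gave 2 higher (Ctss at 0.65 and Cd68 at 0.30) and 12 lower, with a median of -0.37. Set against FAP and fibroblast markers, a sum made mostly of collagen transcripts, 40 of the 41 were higher without overlap and Glb1 overlapped. On these marker scales the counts were not made over all tested genes. The macrophage sum was higher and the FAP and fibroblast sum lower in every FID library. A gene with unchanged CPM would be lower on the macrophage scale and higher on the FAP and fibroblast scale. The count of genes without overlap thus rested on the scale, while Ctss was higher on each of the 4 scales used. These scales rest on the same counts, and the macrophage ones differ only by Lyz2, so they give no separate support for Ctss.

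**Figure D4:**
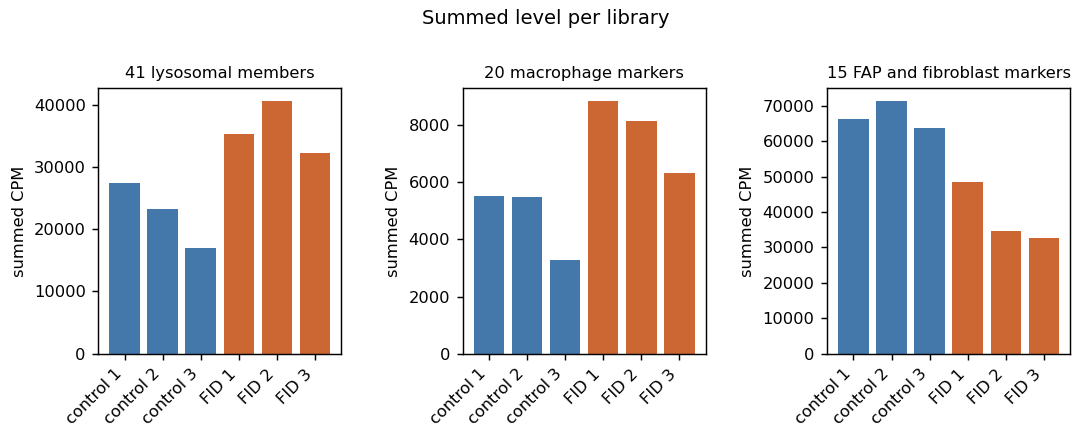
Summed CPM of the 41 lysosomal genes, of the 20 macrophage markers and of the 15 FAP and fibroblast markers in each library, as bars from 0 (control blue, FID orange). The lysosomal and macrophage sums are higher in all 3 FID libraries, the FAP and fibroblast sum is lower in all 3, and control 3 is lowest of the 6 for the lysosomal and macrophage sums. Col1a1, Col1a2 and Col3a1 make up most of the FAP and fibroblast sum.

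Lysosomal genes outside the 41 leaned the same way by smaller steps. Of 104 listed, 93 passed the filter, 75 had a log2 fold change above 0 (median 0.28), 39 stood higher in FID without overlap (13.0% of all tested genes) and 2, Arsb and Laptm4b, lower (12.3% of all tested genes). EdgeR called 0 of the 93, 33 were higher (9.81% of all tested genes) and 2 lower at an unadjusted p under 0.05, and DESeq2 called 13 higher (3.60% of its tested genes) and 0 lower. The other pump subunits had the highest median among the larger lists (0.45, 13 of 14 above 0). Tcirg1, the a3 subunit of osteoclast and macrophage pumps, stood at 126, 85.2 and 64.8 CPM against 134, 204 and 176 CPM (0.90, SE 0.27, adjusted p 0.164 in edgeR and 0.0367 in DESeq2). Atp6v1g1 was at 0.72 and Atp6ap2 at 0.48, both without overlap.

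Among 31 other hydrolases tested, 21 were above 0 (median 0.28), with Fuca2, a fucosidase, at 0.75, Dnase2a, the acid DNase, at 0.80 and Creg1 at 0.72, each called by DESeq2. The sulphatase Arsb was at -0.42 (SE 0.14, edgeR adjusted p = 0.183). Among 18 membrane and transport genes, 15 were above 0 (median 0.29). Clcn7, the chloride-proton exchanger, and Ostm1, its beta subunit, did not overlap, at 0.56 and 0.70.

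Of 11 sorting genes, 10 were above 0 (median 0.20), and the receptors that carry mannose 6-phosphate tagged enzymes to the lysosome differed in sign. M6pr, the cation-dependent receptor, stood at 177, 171 and 156 CPM in control against 208, 289 and 264 CPM in FID (0.60, SE 0.16, adjusted p 0.141 in edgeR and 0.0278 in DESeq2). Igf2r, the cation-independent receptor that also binds IGF-II, stood at 471, 342 and 247 CPM in control against 281, 238 and 195 CPM in FID, with overlap (-0.57, SE 0.25, edgeR adjusted p = 0.277). Of 17 genes of the MiT/TFE family and of nutrient sensing at the lysosome, 14 were above 0 (median 0.19), Lamtor5 of the Ragulator scaffold among them at 0.61 (SE 0.11, DESeq2 adjusted p = 0.00457). Only 2 of 7 cathepsin inhibitors passed the filter. Cstb, the cytosolic inhibitor of cysteine cathepsins, stood at 110.0, 155 and 165 CPM in control against 222, 343 and 296 CPM in FID without overlap (1.00, SE 0.22, adjusted p 0.136 in edgeR and 0.0034 in DESeq2), while the secreted inhibitor Cst3 was at 0.10.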

How the data were processed

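The authors deposited raw counts of reads per gene, 1 table per library, with Ensembl identifiers as row names. The submitters' processing notes name the mm10 build and, without a role or order, STAR, HTSeq, Bowtie2 2.5.4, cutadapt, SAMtools and DESeq2. A strand-specific kit was used, per the labels' protocols, but how strand was handled in counting, and with which annotation, is not given in the sources used here. The exons of 11 of the 41 genes (Ctsa, Ctsb, Ctsd, Ctsl, Ctsz, Glb1, Hexa, Ppt1, Npc1, Grn and Lamp1) overlap another annotated gene, and their counts may include or lose reads of it. Entries that name no gene (9.60% to 10.9% of each total) were left out. Symbols matched 42462 of 43432 identifiers (97.8%), and coordinates are those of GENCODE M21 on GRCm38.

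In edgeR 4.0.16, low counts were removed by filterByExpr with a minimum count of 10 and a minimum total of 15. The rest were scaled by TMM and compared with the two-sided quasi-likelihood test, group being the only term, with Benjamini-Hochberg adjustment at 0.05 over 12881 genes. DESeq2 1.42.0 and limma 3.58.1 gave alternatives. CPM used TMM-scaled library sizes, and TPM used the union of annotated exons. A count of 0 allows up to 3 counts, or 0.593 CPM in control 1 and 0.293 CPM in control 3, and covers counting error only. On simulated counts of 12881 genes for this comparison, with 200 changed, the test recovered 49% of the 2-fold and 100% of the 4-fold changes. The simulation gave every gene the same dispersion, so recovery in the real counts may differ. In the real counts Ly6c2, 17.8-fold higher in FID, had an edgeR adjusted p of 0.136. Ratios within libraries used an exact permutation test over libraries.

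The 41 genes, the other gene lists and the marker lists were chosen with earlier results of these data known. Full statistics were given for Ctss, Cd68, Atp6v0d2, Ctsk, Lamp1, Atp6v0d1 and Tfeb, and in each role for the gene with the highest mean CPM and the 3 with the smallest unadjusted p, with up to 3 genes from each other list by the same p. Other genes were named by their levels, some of them after their values were seen. Promoter letters were searched in RefSeq windows of protein-coding genes, leaving out chromosome 18. Alternatives were other scalings (DESeq2's median ratio, upper quartile), other filters (none, or at least 1 CPM in 3 libraries), DESeq2, limma-voom with and without sample weights, a replicate block and leaving out each library.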

Additional observations from a re-analysis of the deposited data

How the results depend on the processing

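The count of the 41 lysosomal genes that passed the test, 0 by edgeR, was 8 with no filter on low counts, 12 with DESeq2 and 16 with limma-voom and sample weights. It was 0 with limma-voom without weights, with either other scaling, with the filter of 1 CPM in 3 libraries and with the replicate block, and ranged from 0 to 6 with 1 library left out (6 without FID 1). Over all genes the count was 269 with no filter, 760 with DESeq2 and 1531 with sample weights, 0 with the other settings just named, and ranged from 0 to 359 (359 without FID 1, 3 without control 1). The cause was not tested. The count of the 41 without overlap was 19. It became 1, 2 or 40 against summed macrophage markers, the same without Lyz2, or FAP and fibroblast markers, all chosen after the values were seen. These counts have no share over all tested genes beside them, and the marker sums themselves differed between groups. Leaving out 1 library can only keep or raise the count of 19, and it ranged from 19 to 26. With 1 library left out, the median log2 fold change of the glycosidases ranged from -0.040 (without control 3, where its sign turned) to 0.32, that of all 41 genes from 0.39 to 0.53, and those of the other roles stayed above 0. Ctsk turned to 0.018 with no filter, 0.022 with limma-voom and 0.017 with the replicate block, and ranged from -0.21 to 0.20 with 1 library left out. Tfeb turned to 0.0079 with upper-quartile scaling, 0.023 with no filter, 0.097 with limma-voom, 0.050 with sample weights and 0.030 with the block, and ranged from -0.21 to 0.27. All 3 within-library ratios kept their direction under every alternative run. The labels do not say whether replicate numbers pair the libraries. Deviations of same-numbered libraries correlated at -0.01, -0.32 and 0.34, too few values to settle it. The replicate block called 0 of the 41 genes, with a median of 0.47. Depth limits Tfeb and Atp6v0d2 most, since they had the fewest counts of the 41.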
